A study of Mus musculus with 8 samples.

Results

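The enzymes of phase II conjugation were followed in the distal colon of mice that express human Siglec-XII in the intestinal epithelium and of their controls. The genes were taken by symbol. They were all UDP-glycosyltransferases (Ugt), all cytosolic sulfotransferases (Sult) and all glutathione S-transferases whose symbol is Gst, a class letter and a number. Where a symbol had 2 rows, the row with the highest mean was kept. This gave 65 genes of 51425 distinct symbols in the table, of which 22 were Ugt, 21 were Sult and 22 were Gst genes. RNA-Seq of the distal colon covered 4 control and 4 Siglec-XII samples, each with 1 value per gene. Siglec-XII mice (SIGLEC12-Villin1-Cre-ERT) carried human SIGLEC12 at ROSA26 behind a floxed EGFP-stop cassette with the CAG promoter. Controls (Villin1-Cre-ERT) carried the same inducible Cre, which the Villin1 promoter limits to the epithelium of villi and crypts. Both groups were female, received tamoxifen (10 mg/ml stock) on 5 days from an age of 8 weeks and were sacrificed 7 days after the last dose, so both tamoxifen and Cre-ERT were common to the groups and no sample was free of tamoxifen. The labels list 4 samples per group where the series' design text speaks of fewer mice, and nothing in the labels ties a sample to a mouse, so the p-values below measure the spread between these samples, which may in part be technical.

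Phase II enzymes attach a polar group to foreign and endogenous compounds so that the products can be carried out of the cell. Ugt1 and Ugt2 enzymes sit in the endoplasmic reticulum and transfer glucuronic acid from UDP-glucuronic acid to bilirubin, steroids, phenols and drugs. Sult enzymes are cytosolic and transfer a sulfonate group from the donor PAPS, and Gst enzymes couple glutathione to electrophiles such as the products of lipid peroxidation. In the colon these enzymes meet compounds from the diet and from the microbiota.

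The genes lie in a few clusters (GRCm38). The 9 Ugt1a genes share chr1:88055388-88220002, where each first exon is spliced to common later exons. All 13 genes of the Ugt2 and Sult1b1 to Sult1e1 cluster lie within chr5:86889767-87591594, and the 7 Gstm genes within chr3:107895821-108044894. The last 30 bases of the first exon of the 4 Ugt1a genes that were expressed are shown in lower case, followed in capitals by the first 30 bases of the second exon, which starts at position 88215044 in all 4 (GENCODE M21 transcripts, plus strand). They are shown because, among the bases printed here, only the lower-case part tells these genes apart.
Ugt1a1: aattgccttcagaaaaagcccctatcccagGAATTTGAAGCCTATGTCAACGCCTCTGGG
Ugt1a6a: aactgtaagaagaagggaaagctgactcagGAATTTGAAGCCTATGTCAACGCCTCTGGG
Ugt1a7c: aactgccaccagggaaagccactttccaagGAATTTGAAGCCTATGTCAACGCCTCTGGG
Ugt1a9: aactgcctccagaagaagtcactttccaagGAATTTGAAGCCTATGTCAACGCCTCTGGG
From the second exon on, Ugt1a1, Ugt1a6a and Ugt1a9 had the same 1311 bases, whereas Ugt1a7c had 2316 bases. Of all 31-base windows of its transcripts, Ugt1a1 shared 81.3% with other genes, Ugt1a9 67.8%, Ugt1a7c 55.7% and Ugt1a6a 53.0%, so the value of each of these genes rests on how reads of the shared exons were divided and is uncertain. The same held for Gsta1, with 92.9% of its windows shared, mostly with the gene Gm3776, and for Gsta2 with 60.7% and Gstp2 with 60.3%. Gsto1, Gsta4, Sult1b1, Sult1d1 and Gsto2 shared none of theirs.

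Across the table, 13164 genes had at least 1 TPM (the reads of a gene scaled for its length and for the library total) in at least 4 samples and were tested. Colon identity was checked with marker genes: all 10 markers of colonic absorptive epithelium were above 1 TPM in every sample, with sums of 9867 to 13449 TPM, while the small intestinal genes Lct, Sis and Alpi stayed at or under 0.28 TPM, and Apoa4 was listed at 0. The other 2 genes of the small intestinal list were present, Fabp6, the ileal bile acid binding protein, at 24.5 to 33.1 TPM and Apob at 0.889 to 6.20 TPM. Of 5 liver genes Ttr, the transthyretin gene, had 57.3 to 89.2 TPM, and Alb, Apoa1, Serpina1a and Fgb stayed under 1 TPM in every sample. The 10 genes of a list for stratified squamous epithelium, the lining of the anal canal, summed to 24792 TPM in control 1 and 11523 in control 4, to 1862 and 1366 in controls 2 and 3, and to 1598, 5817, 761 and 853 in Siglec-XII samples 1 to 4. Smooth muscle markers summed to 623 to 1003 TPM in controls and 303 to 651 in Siglec-XII samples, and 3 of the 6 passed as lower at unadjusted p. The 6 immune cell markers were low and did not overlap between the groups in their sums, with 22.8, 6.01, 5.25 and 12.3 TPM in controls 1 to 4 and 3.79, 4.02, 2.64 and 3.90 TPM in Siglec-XII samples 1 to 4, and neither of the 2 that were tested passed at unadjusted or adjusted limma p. Siglec-XII samples 3 and 4 stood apart in their median log2(TPM + 1) over the tested genes. Relative to the mean of all sample medians it lay at -0.23 and -0.37, against -0.022 to 0.18 in the other 6. Goblet cell markers were highest in these 2 (13898 and 15612 TPM against 9790 to 11733). Human SIGLEC12 was not among the mouse genes analysed here, so the labels were not checked with it.

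Of the 65 genes, 32 were tested: 6 of 22 Ugt, 5 of 21 Sult and 21 of 22 Gst genes. Of the other 33 genes, 13 were listed at 0 in all 8 samples (3 Ugt and 10 Sult genes), and 20 had some value above 0. Only 2 of these 20 reached 1 TPM in any sample, Ugt1a6b, highest in control 1, and Sult5a1 with 1.82 in control 4. Sult2a1 to Sult2a7, hydroxysteroid sulfotransferases best known from liver, were listed at 0 in every sample, and Sult2a8 had 0.37 TPM in 1 sample. The estrogen sulfotransferase Sult1e1 was likewise listed at 0 throughout, as were Ugt1a10, Ugt2a3 and Ugt2b37. The ranges of the tested genes are plotted by sample, and all but Ugt1a9 and Gsto2 had at least 2.33 TPM in every sample. The number of reads behind a TPM value is unknown, so a gene listed at 0 was not detected at an unknown depth.

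**Figure D1:**
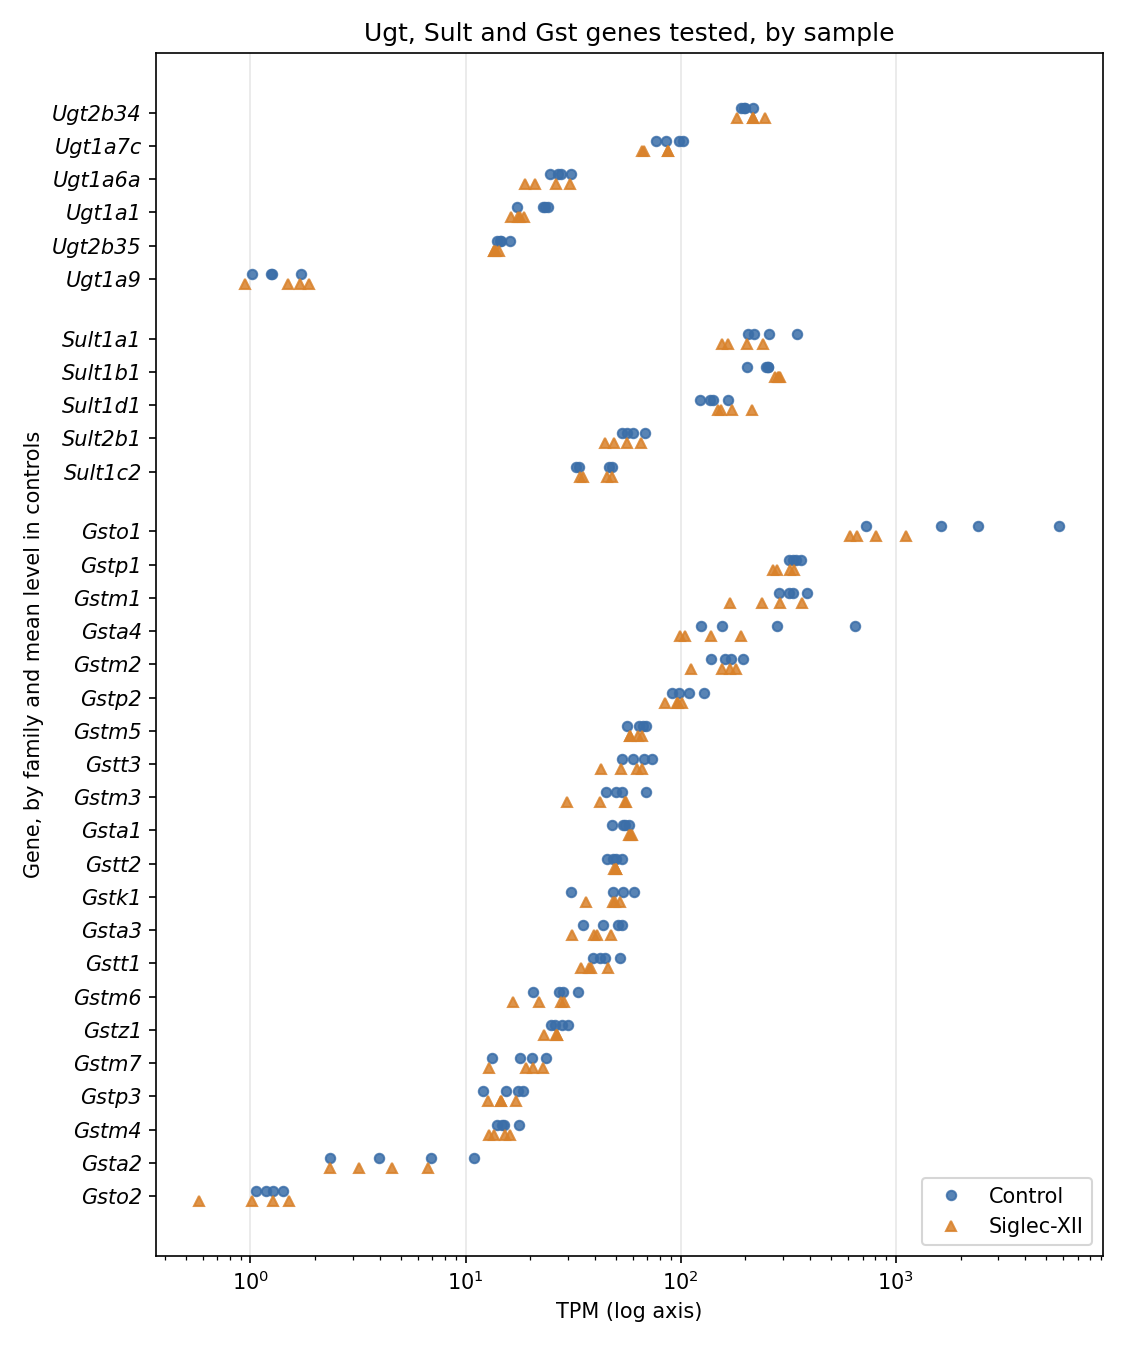
TPM (log axis) of the 32 tested Ugt, Sult and Gst genes in each of 4 control samples (circles) and 4 Siglec-XII samples (triangles), grouped by family and ordered by the mean in controls. Gsto1 lies above all other genes in every sample, and the 2 groups overlap for all genes but Sult1b1.

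Ugt transcripts in control colon came mostly from few genes. Ugt2b34 alone made up 55.9% of the summed Ugt level in controls, and with Ugt1a7c 81.2%. Ugt2b34, an enzyme of the steroid-conjugating Ugt2b branch, measured 199, 217, 189.8 and 197 TPM in controls 1 to 4 and 218, 216, 183 and 247 TPM in Siglec-XII samples 1 to 4. Ugt1a7c, of the phenol- and drug-conjugating Ugt1a branch, measured 85.8, 102, 97.9 and 76.8 TPM in controls, against 87.2, 87.4, 67.2 and 65.9 in Siglec-XII samples. Both genes overlapped between the groups, with log2 differences (Siglec-XII minus control, of log2(TPM + 1)) of 0.10 (95% interval -0.13 to 0.33) and -0.24 (-0.55 to 0.072).

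Lower in the order, Ugt1a6a, which glucuronidates planar phenols, had 30.9, 26.96, 24.6 and 27.8 TPM in controls, against 26.2, 30.6, 18.8 and 21.02 in Siglec-XII samples. Ugt1a1, the enzyme that conjugates bilirubin, had 22.8, 23.4, 17.3 and 24.2 TPM in controls, against 17.96, 18.7, 17.5 and 16.3 in Siglec-XII samples. Control 3 was the only control inside the Siglec-XII range of Ugt1a1. Ugt2b35 had 14.1, 16.1, 14.5 and 14.5 TPM in controls, against 14.3, 13.9, 13.6 and 13.5 in Siglec-XII samples, a span of 13.5 to 16.1 TPM over all 8. Ugt1a9 lay between 0.94 and 1.87 TPM over all 8 samples. Neighbours in this order (Ugt2b34, Ugt1a7c, Ugt1a6a, Ugt1a1, Ugt2b35, Ugt1a9) did not overlap in their control ranges. The places of the Ugt1a genes rest on how reads of their shared exons were divided. The summed Ugt level averaged 359 ± 21.1 TPM (SD, n = 4) among controls and 351 ± 32.4 TPM (SD, n = 4) with Siglec-XII.

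Sult transcripts were spread more evenly over 3 genes. Sult1a1, which sulfonates simple phenols, made up 34.8% of the summed Sult level in controls. Together with Sult1b1, which acts on thyroid hormones and small phenols, it made up 67.3%, and with Sult1d1, which acts on catecholamines, 86.4%. Control ranges of Sult1a1 and Sult1b1 overlapped, and those of the following pairs in the order (Sult1b1, Sult1d1, Sult2b1, Sult1c2) did not. Sult1a1 measured 257, 347, 205 and 219 TPM in controls, against 203, 240.3, 165 and 155 TPM in Siglec-XII samples, where samples 3 and 4 were lowest.

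Sult1b1 measured 204, 255, 248 and 254 TPM in controls, against 273, 283, 285 and 291 TPM in Siglec-XII samples. The lowest Siglec-XII value exceeded the highest control value. Sult1b1 was the lone gene of the 32 whose groups did not overlap (3.13%, against 5.11% of all tested genes, or 1.05% as higher and 4.06% as lower). Sult1d1 measured 123, 165, 136 and 141 TPM in controls, against 154, 149, 173 and 213 TPM in Siglec-XII samples, where 2 of 4 samples were above all controls. Sult2b1, which sulfonates cholesterol and pregnenolone, measured 56.4, 60.1, 53.2 and 68.01 TPM in controls, against 56.01, 65.1, 44.6 and 49.01 TPM in Siglec-XII samples. Sult1c2 measured 33.5, 46.7, 47.8 and 32.8 TPM in controls, against 47.8, 45.3, 35.1 and 33.9 TPM in Siglec-XII samples, with nearly the same span in both groups. The summed Sult level averaged 739 ± 92.1 TPM (SD, n = 4) among controls and 742 ± 32.9 TPM (SD, n = 4) with Siglec-XII.

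**Figure D2:**
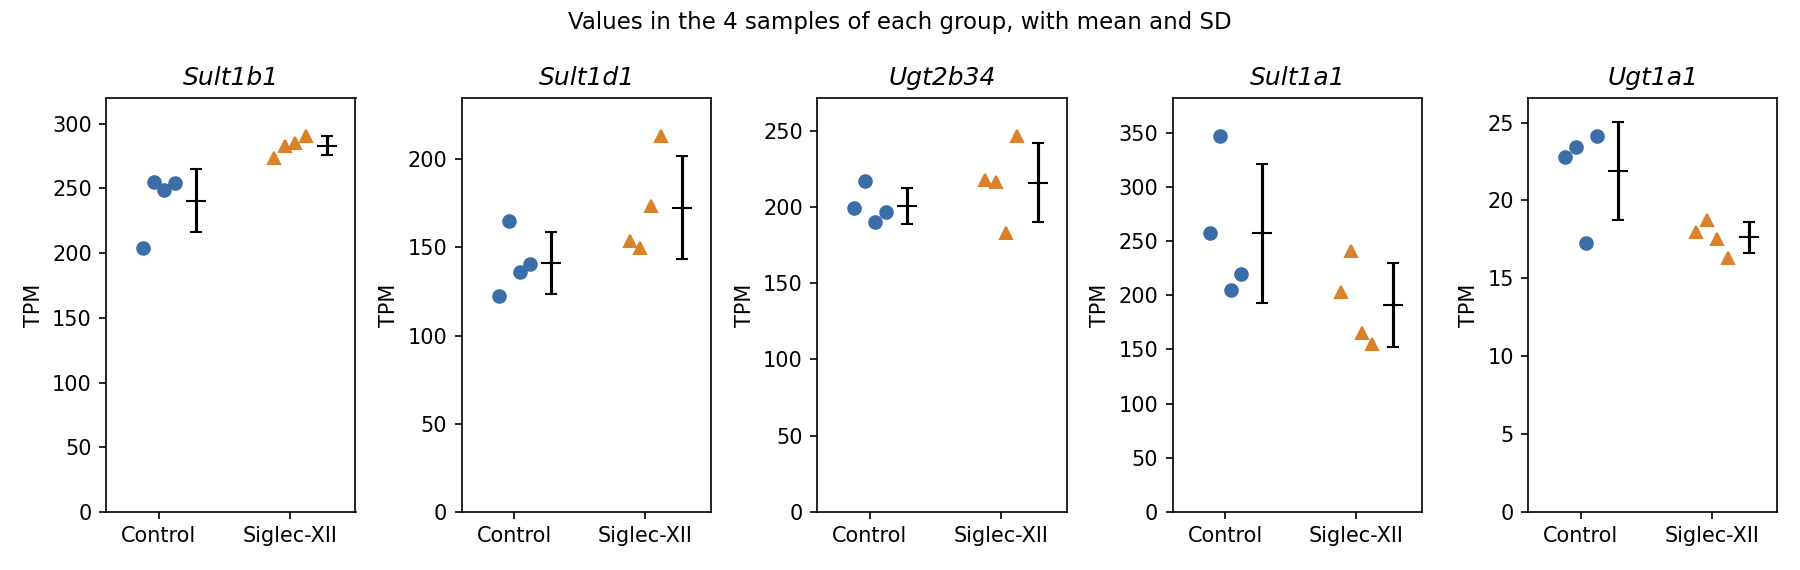
TPM of Sult1b1, Sult1d1, Ugt2b34, Sult1a1 and Ugt1a1 in the 4 control samples (circles) and the 4 Siglec-XII samples (triangles), with the mean and SD (n = 4) in black beside each group and axes that start at 0. Only for Sult1b1 do all Siglec-XII samples, from 273 to 291 TPM, lie above all controls.

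Glutathione transferases were the most broadly expressed family, and 1 gene dominated it. Gsto1, an omega class enzyme better known for the reduction of dehydroascorbate and methylated arsenic than for conjugation, measured 5763, 1623, 728 and 2421 TPM in controls, against 806, 1111, 663 and 614 TPM in Siglec-XII samples. Control 1 was the highest by far, and control 3 lay inside the Siglec-XII range. Gsto1 made up 52.9% ± 17.9 of the summed Gst level per control sample and 35.2% ± 3.69 per Siglec-XII sample (SD, n = 4 each). The summed Gst level averaged 4414 ± 2389 TPM (SD, n = 4) among controls and 2249 ± 429.6 TPM with Siglec-XII. The log2 ratio of these means was -0.97, and -0.54 without control 1. Without Gsto1 the sums were 1781 ± 213 and 1451 ± 231 TPM.

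Gsta4, the alpha class enzyme that conjugates the lipid peroxidation product 4-hydroxynonenal, measured 649, 155, 124 and 279.7 TPM in controls, against 138, 191, 105 and 99.2 TPM in Siglec-XII samples. Controls 1 and 4 were above all other samples. Gstp1, the main pi class enzyme, measured 345, 361, 332 and 319 TPM in controls, against 322, 337, 282 and 267 TPM in Siglec-XII samples. Gstp1, Gstp2 and Gstp3 each occupied 2 rows with identical values under different identifiers, so that each value may hold only part of the gene's reads. Gstm1, the leading mu class gene, measured 332, 385, 319.6 and 286 TPM in controls, against 367, 290.3, 239.8 and 169 TPM in Siglec-XII samples, and Gstm2 measured 139, 194, 172 and 160.4 TPM in controls, against 181, 170.4, 155 and 112 TPM in Siglec-XII samples. Siglec-XII sample 4 was lowest for both Gstm genes. After Gsto1, and with only 1 row of Gstp1 counted, the control ranges of Gstp1, Gstm1, Gsta4 and Gstm2 overlapped from each to the next. Their order is not fixed.

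The other 16 tested Gst genes had control means from 107 TPM (Gstp2) down to 1.23 TPM (Gsto2). By class the summed control level was 677 ± 78.7 TPM for mu, 462 ± 34.4 for pi, 407 ± 247 for alpha and 157 ± 12.3 for theta (SD, n = 4). The pi sum counts 1 of the 2 rows of each Gstp gene. With both rows the whole Gst sum averaged 4876 TPM in controls instead of 4414, so the place of pi below mu is not fixed. Gstz1, the zeta class enzyme of tyrosine breakdown, and Gstk1, a mitochondrial and peroxisomal enzyme, had control means of 27.2 and 48.5 TPM. Only Gsto1 (7.91-fold), Gsta4 (5.22-fold) and Gsta2 varied more than 2-fold between the highest and lowest control, against a median range of 1.36-fold over the 32 genes and at most 1.95-fold for the other 29. Gsta2, which shared 60.7% of its windows with other genes, had 6.94, 2.33, 3.98 and 10.98 TPM in controls, against 4.55, 6.67, 2.34 and 3.21 in Siglec-XII samples.

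Gsto1 and Gsta4 were ordered across samples much as the squamous epithelium genes were. The 2 controls with the largest squamous sums had the highest values of both, and Siglec-XII sample 2, which had the largest squamous sum of its group, had the highest values of its group. At the smallest squamous sums, in Siglec-XII samples 3 and 4, Gsto1 was still at 663 and 614 TPM. All 10 squamous genes were tested and lay below 0 on the log2 difference scale, with a median of -1.61, and 1 of them (Dsg3, a desmosomal cadherin) passed as lower at unadjusted p. These 10 genes were chosen after the values of Gsto1 were seen. With their mean log2 level as a further term in the fit, the log2 difference of Gsto1 went from -1.37 to -0.48 and that of Gsta4 from -0.91 to -0.086. Immune cell markers, too, summed highest in controls 1 and 4, at 22.8 and 12.3 TPM. As the 10 squamous genes were chosen after Gsto1 was seen, the fit with their term cannot decide their part in the result. The part of either list was not tested, and in bulk tissue fewer cells of a type and less RNA per cell cannot be told apart.

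**Figure D3:**
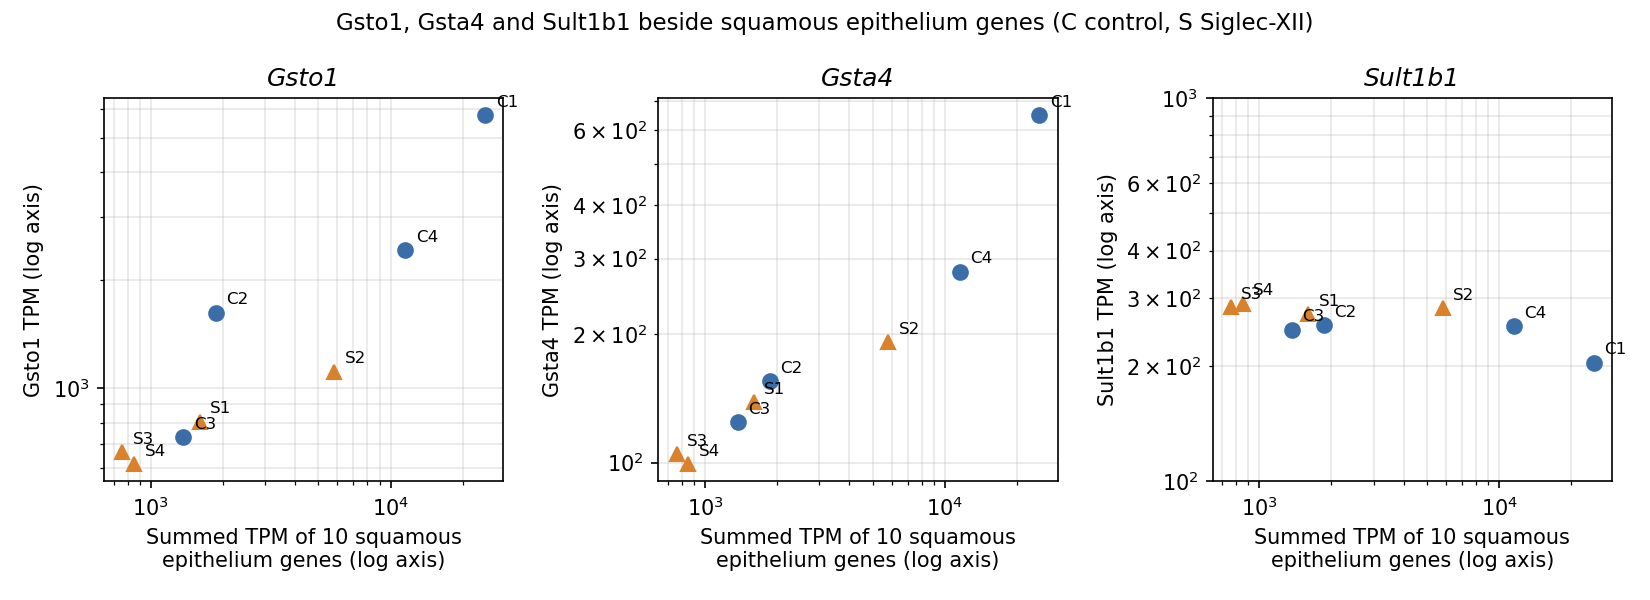
TPM of Gsto1, Gsta4 and Sult1b1 (log axes) against the summed TPM of 10 stratified squamous epithelium genes (log axis) in the 4 control samples (circles, C1 to C4) and the 4 Siglec-XII samples (triangles, S1 to S4). Gsto1 and Gsta4 are highest in C1, the sample with 24792 TPM of squamous genes, whereas Sult1b1 is lowest there.

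The comparison of Siglec-XII with control samples asked whether these enzymes were at other levels where Siglec-XII was expressed. Gsto1 and Ugt1a1 were lower and Sult1b1 was higher in Siglec-XII samples at unadjusted p, and all genes but Gsto1 and Gsta4 lay within 0.42 of 0 on the log2 difference scale. By limma with Benjamini-Hochberg adjustment over 13164 genes, 0 of the 32 genes passed at an adjusted p of 0.05 (smallest adjusted p = 0.515), where 5 of all tested genes did (0.038%). At an unadjusted p of 0.05 from the same limma fit, 3 of 32 passed (9.38%), against 8.87% of all tested genes, so the share was near that of the background. Gsto1 (ENSMUSG00000025068, chr19:47854970-47864790, plus strand) was 2.59-fold lower, with a log2 difference of -1.37 (SE 0.53, 95% interval -2.58 to -0.17, limma adjusted p = 0.515). It was the one gene of the 32 with a fold of 2 (3.13%, against 2.01% of all tested genes), and so the one past both the fold and the unadjusted p (0.919% of all tested genes), and its groups overlapped. Without control 1 the log2 difference was -0.87, no longer past the unadjusted limit, and the call was also lost without control 4 and without Siglec-XII sample 1, 3 or 4.

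Sult1b1 (ENSMUSG00000029269) was 1.18-fold higher, with a log2 difference of 0.24 (SE 0.0913, 95% interval 0.034 to 0.45, limma adjusted p = 0.515). Of all tested genes, 1.19% passed at unadjusted p in this direction. Its call was lost without Siglec-XII sample 2 or 3, with log2 differences of 0.24 in both fits, and with the squamous term, where it was 0.17. Ugt1a1 (ENSMUSG00000089960, chr1:88211959-88218997, plus strand) had a log2 difference of -0.29 (SE 0.13, 95% interval -0.57 to -0.0031, limma adjusted p = 0.515), where 7.67% of all tested genes passed as lower at unadjusted p. Its call held without control 3 and was lost without any other single sample. After centring each sample on its median its log2 difference was -0.075. Ugt1a1 shared 81.3% of its windows with other genes, so its value and this call are uncertain.

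The genes next to the limit were Sult1a1 with a log2 difference of -0.42 (95% interval -0.85 to 0.017), Sult1d1 with 0.28 (-0.026 to 0.59) and Gsta4 with -0.91 (-1.98 to 0.15). The interval of Gsta4 held both no difference and more than a fold of 2. Its log2 difference was -0.44 without control 1, and -1.23 without control 3, where it was past the unadjusted limit and a fold of 2. For Gstt2, Gsta1 and Gstp1 the intervals were narrow (-0.17 to 0.20, -0.067 to 0.32 and -0.39 to 0.044).

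**Figure D4:**
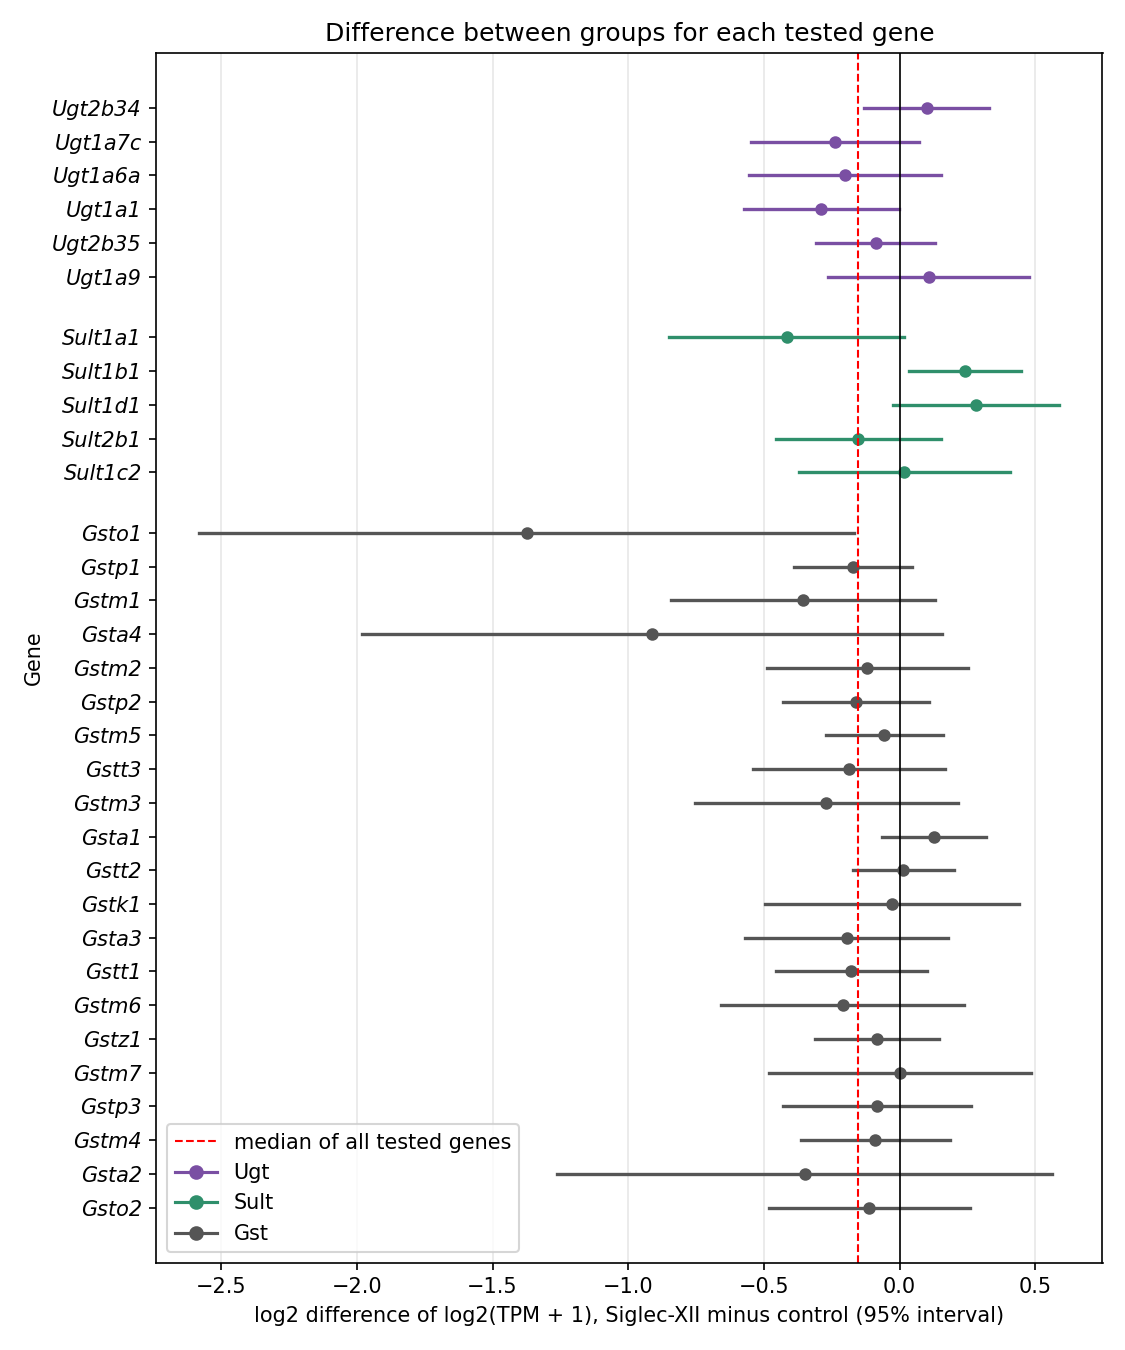
Log2 difference of log2(TPM + 1), Siglec-XII minus control, with its 95% interval from limma, for the 32 tested genes by family (Ugt violet, Sult green, Gst grey). The red dashed line marks the median of all tested genes, -0.15. Gsto1 lies at -1.37, Gsta4 at -0.91 and every other gene within 0.42 of 0.

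Over the 32 genes, 24 lay below 0 (75.0%) and 8 above, with a median of -0.14, where 78.1% of all tested genes lay below 0 with a median of -0.15. By family the medians were -0.16 for Gst (18 below and 3 above 0), 0.017 for Sult (2 below and 3 above) and -0.15 for Ugt (4 below and 2 above). These signs changed with the scaling of the samples. After centring each sample on its median, 24 of the 32 genes lay above 0 (75.0%, against 61.5% of all tested genes). Their median was then 0.077 beside 0.060 for all genes. Centred in this way, the 3 genes that passed at unadjusted p were Sult1b1, Sult1d1 and Gsta1, all higher in Siglec-XII samples. The share of all tested genes that passed after centring is not given here. Without Siglec-XII samples 3 and 4 together, 17 of 32 lay above 0 (53.1%, against 51.1% of all tested genes). None of the 32 then passed by limma at unadjusted or adjusted p. Siglec-XII sample 4 held the lowest value of 17 of the 32 genes (53.1%, against 51.9% of all tested genes), and control 2 the highest value of 17 (53.1%, against 26.6% of all tested genes).

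Sult1b1 (chr5:87513339-87538195) and Sult1d1 (chr5:87554645-87569027) are neighbours on the minus strand and had mean log2 differences of 0.24 and 0.28, while Ugt2b34 and Ugt2b35 in the same cluster had 0.10 and -0.09. The promoters of the first pair (250 bases before to 50 after a RefSeq start, GRCm38.p6, both starts of Sult1b1) are shown because these neighbours had the largest positive differences, and that of Gsto1 because it had the largest negative one. Capitals mark GCGTG, the core that the aryl hydrocarbon receptor binds, read on either strand.
Sult1b1 at chr5:87538146-87538445, minus strand: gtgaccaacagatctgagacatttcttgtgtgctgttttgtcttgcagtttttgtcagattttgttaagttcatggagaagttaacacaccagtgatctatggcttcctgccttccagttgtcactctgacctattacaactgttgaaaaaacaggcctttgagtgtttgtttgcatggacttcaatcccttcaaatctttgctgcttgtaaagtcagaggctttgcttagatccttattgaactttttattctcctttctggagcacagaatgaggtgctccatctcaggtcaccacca
Sult1b1 at chr5:87536173-87536472, minus strand: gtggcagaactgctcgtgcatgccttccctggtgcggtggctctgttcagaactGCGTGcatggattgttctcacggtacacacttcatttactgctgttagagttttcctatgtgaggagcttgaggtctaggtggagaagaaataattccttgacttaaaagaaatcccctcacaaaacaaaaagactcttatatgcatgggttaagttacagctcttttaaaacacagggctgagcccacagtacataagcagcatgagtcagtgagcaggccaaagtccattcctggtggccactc
Sult1d1 at chr5:87568957-87569256, minus strand: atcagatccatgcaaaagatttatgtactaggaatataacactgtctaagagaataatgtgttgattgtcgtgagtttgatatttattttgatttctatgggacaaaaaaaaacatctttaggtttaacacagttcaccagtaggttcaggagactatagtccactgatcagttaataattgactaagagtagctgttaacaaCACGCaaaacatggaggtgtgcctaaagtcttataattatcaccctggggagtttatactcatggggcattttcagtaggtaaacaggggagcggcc
Gsto1 at chr19:47854723-47855022, plus strand: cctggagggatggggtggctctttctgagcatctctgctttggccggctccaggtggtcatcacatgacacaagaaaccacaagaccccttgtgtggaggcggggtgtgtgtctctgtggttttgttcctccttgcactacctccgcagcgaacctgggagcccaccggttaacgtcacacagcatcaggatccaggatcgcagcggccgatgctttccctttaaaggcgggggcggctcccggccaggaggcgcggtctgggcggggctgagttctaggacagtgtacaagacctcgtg
Of the 32 tested genes, 30 (all but Gsta4 and Gstt2) had a promoter in the RefSeq table, with 40 starts. GCGTG was found in 11 of these 40 windows (27.5%, against 32.4% of all promoters), in 9 genes: Gsta1, Gsta2, Gstm1, Gstm5, Gstp1, Gstp3, Sult1b1, Sult1d1 and Sult2b1. The antioxidant response core TGACNNNGC, to which Nrf2 binds, was found in 3 of 40 (7.5%, against 12.4% of all promoters), those of Gsta3, Gstm5 and Gstm7. Both motifs were read on both strands and a match is a description of the letters alone.

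Genes that supply, assist or follow conjugation were taken from 10 lists with 139 distinct genes, of which 119 were tested. At unadjusted limma p, 3 passed as higher and 5 as lower (6.72%, against 8.87% of all tested genes), with a median log2 difference of -0.13. Of 6 tested genes for UDP-glucuronic acid supply 1 passed, Slc35b1, a nucleotide transporter of the endoplasmic reticulum, which was higher at 65.5 ± 3.39 TPM against 52.0 ± 1.13 (SD, n = 4), with a log2 difference of 0.32. The UDP-glucose dehydrogenase Ugdh, the most abundant of this list, had 122 ± 20.2 TPM in controls, against 102 ± 13.2 in Siglec-XII samples. Of 7 for sulfate and PAPS 1 passed, the Golgi PAPS transporter Slc35b3, which was higher by 0.22 on the log2 scale, and the sulfate carrier Slc26a2 had 184 ± 52.1 and 189.8 ± 53.3 TPM (SD, n = 4).

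Of 21 tested genes of glutathione synthesis and recycling 2 passed, both lower: the 5-oxoprolinase Oplah with a log2 difference of -0.35 and the aminopeptidase Anpep with -0.50. Gpx1, which reduces hydrogen peroxide with glutathione, was the most abundant at 633 ± 53.6 and 617 ± 48.1 TPM. Among 14 other genes with a glutathione transferase fold or membrane transferases, the elongation factor subunit Eef1g was lower, with a log2 difference of -0.39, and the microsomal Mgst3 had 792 ± 34.7 TPM in controls, against 907 ± 113 in Siglec-XII samples. Of 9 carriers for the efflux of conjugates the organic anion transporter Slco2b1 was lower, with a log2 difference of -0.37, and Abcb1a led with means of 167 and 142 TPM.

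In the Nrf2 pathway 1 of 18 passed, G6pdx, the first enzyme of the pentose phosphate route, lower with a log2 difference of -0.67, and Taldo1 was the most abundant at 321 ± 6.69 and 294 ± 24.4 TPM (SD, n = 4). Among 17 xenobiotic and epithelial transcription factors the estrogen receptor gene Esr1 was higher by 2.78 on the log2 scale (limma adjusted p = 0.0109), at 23.2 ± 3.90 TPM against 2.72 ± 1.45 (SD, n = 4). Both groups carried Cre-ERT, an estrogen receptor fused to Cre, and whether its reads were counted as Esr1 was not tested. The study, whose methods name DESeq2 on counts, reported no gene as significant between the baseline groups. Cdx1 was the most abundant of these factors at 369 ± 44.0 and 348 ± 56.1 TPM. No gene passed at unadjusted or adjusted limma p among 14 of quinone and epoxide handling, led by Cbr1 with 365 ± 37.2 and 367 ± 7.496 TPM, among 8 other conjugating enzymes, led by Acsm3 with 166 ± 24.9 and 158 ± 29.98, or among 8 of deconjugation, led by Acy1 with 47.3 ± 3.16 and 43.0 ± 7.34. Calls in these lists changed with the scaling of the samples. With median centring no gene passed in the Nrf2, efflux or other transferase lists, 1 passed in deconjugation and 3 among the transcription factors. With quantile normalization none passed in efflux, and 1 each in deconjugation and in quinone and epoxide handling. With array weights none passed in the Nrf2 list and 1 in deconjugation.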

How the data were processed

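The authors deposited 1 table of log2(TPM + 1) values for 52143 gene identifiers in 8 samples, made with kallisto 0.45.0 and GRCm38 per the labels. The methods name another kallisto version and a human reference genome, whereas the identifiers here are of mouse genes. They also name counts and DESeq2, which were not used here. TPM keeps no read number, so depth and intervals that need it are unknown. Samples were grouped by their titles. For 3 symbols with 2 rows the row with the highest mean was kept. Genes with at least 1 TPM in at least 4 samples (13164) were compared in R 4.3.3 by moderated linear models of limma 3.58.1 (a trended prior variance, Benjamini-Hochberg adjustment), which were tested on simulated data, and a p of 0.05 and a fold of 2, limits named in the study, were read on adjusted and on unadjusted p. Folds of single genes come from log2(TPM + 1), which understates the change of low genes. Figures used matplotlib 3.10.9. Positions and 31-base windows come from GENCODE M21, which holds 98.3% of the identifiers, and promoters from RefSeq. Per-sample values are given for up to 5 genes a family with the highest control mean and for every gene past p or fold or without overlap, and pathway genes were named if called or most abundant. Gsta2, outside this rule, was given by sample for its spread, after its values were seen. The genes and lists were chosen with earlier results of these data known. The lists were recounted under other scalings, a pseudocount of 0.1 and array weights. Alternatives for the enzymes were median centring, quantile normalization, no filter or one at 5 TPM, a pseudocount of 0.1, array weights, variance without moderation, the replicate number as a block, all rows of a repeated symbol, and leaving out samples. A squamous term, counted among the alternatives, was added after the data were seen and is no test of those genes.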

Additional observations from a re-analysis of the deposited data

Results flagged for a closer look

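In each of 64 groups of 4 samples (32 genes in both conditions), the distance of the highest or lowest sample from the rest was compared with Dixon's 95% limit, which chance alone passes in about 3.2 groups. It was passed in 2. Sult1b1 was at 204 TPM in control 1, below the other 3 controls at 248 to 255 TPM. On the log2(TPM + 1) scale its gap was 0.882 of the group's range. Without control 1 the log2 difference of Sult1b1 was 0.16 instead of 0.24. Gstz1 was at 23.1 TPM in Siglec-XII sample 4, below the other 3 at 26.2 to 26.7 TPM. On the same log2 scale its gap was 0.874 of the range.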

How the results depend on the processing

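No gene of the 32 passed limma at adjusted p under any alternative. At unadjusted limma p the count of 3 of 32 became 5 of 52 with no filter on low values (Ugt1a5 and Ugt3a1 joined, both under 0.6 TPM). It became 0 without Siglec-XII samples 3 and 4 together or with the squamous term. It ranged from 0 (without Siglec-XII sample 3) to 5 (without control 3) when single samples were left out. The share of all tested genes that passed under each alternative is not given here, so no background stands beside these counts. The count of 1 past both unadjusted p and a fold of 2 became 0 with median centring, array weights, variance without moderation, the squamous term, or Siglec-XII samples 3 and 4 left out, and ranged from 0 to 2 over single samples. The median difference of -0.14 became 0.077 with median centring and 0.013 without Siglec-XII samples 3 and 4. The summed log2 ratio went from -0.031 to 0.20 for Ugt and from 0.0052 to 0.23 for Sult with median centring, and from -0.97 to -0.23 for Gst as a mean of log2 values (-0.54 without control 1). In the pathway lists, 1 gene more passed in UDP-glucuronic acid supply with quantile normalization or median centring (2 each), and 1 fewer in glutathione synthesis with quantile normalization (1). Sult1b1 passed in 14 of 18 alternatives, Gsto1 in 8 and Ugt1a1 in 6, each with its sign kept. Signs turned for 6 of the 15 genes chosen by level or call: with median centring Gstp1 (0.040), Gstm2 (0.094), Sult2b1 (0.060), Ugt1a6a (0.0099) and Ugt2b35 (0.12, and 0.11 after quantile normalization), with array weights Sult2b1 (0.038) and Ugt1a6a (0.11), without Siglec-XII samples 3 and 4 Gstm2 (0.087), Sult2b1 (0.029) and Ugt1a6a (0.041), with the squamous term Sult1c2 (-0.080), and over single samples Gstm2 (-0.20 to 0.028) and Sult1c2 (-0.072 to 0.11). The cause was not tested. The replicate numbers that the groups share did not pair the samples (correlations of -0.16, -0.20, 0.10 and -0.0025, and 0 of 8 samples closest to their own number), and with the replicate block 3 genes passed, Gsto1, Sult1b1 and Sult1a1, with a median of -0.14. With 4 samples a group and no read numbers, small differences of low genes were not resolved.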
